A study of Mus musculus with 18 samples.

Results

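The comparison covered inguinal white fat (iWAT), a subcutaneous fat depot, in mice labelled KO and WT. It was made up of the 6 iWAT libraries among the 18 of the study, 3 labelled KO and 3 labelled WT, and it was described over the 14226 genes that passed a count filter out of 22298 in the files. KO mice carried Bckdha f/f with RIP-Cre and WT mice carried Bckdha f/f alone, so both groups shared the floxed allele. All were C57BL/6 mice aged 12 weeks, and the labels give neither sex nor treatment. RIP-Cre usually stands for Cre driven by the rat insulin promoter, whose activity lies in pancreatic beta cells and some neurons; neither tissue was profiled. A RIP-Cre control lacking the floxed allele is not among the groups, so an effect of the transgene itself and of the loss of Bckdha cannot be told apart. Whether each library is a separate animal is not stated in the labels, and p-values therefore reflect the library-to-library spread alone, part of which may be technical.

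The product of Bckdha is a catalytic E1 subunit of branched-chain ketoacid dehydrogenase, the mitochondrial complex that commits the ketoacids of leucine, isoleucine and valine to oxidation. Inguinal fat holds adipocytes, their fibroblast-like progenitors, vessels, nerves, macrophages and other immune cells, and a lymph node lies within the depot. Its adipocytes store triglyceride, make fatty acids from glucose under insulin, secrete hormones such as leptin and respond to growth hormone, which acts through its receptor, the kinase Jak2 and the transcription factor Stat5. Levels below are CPM (counts relative to the scaled library size) and are given in the order of replicates 1, 2 and 3 of WT and then of KO. In bulk tissue, fewer cells of a type and less RNA per cell cannot be told apart.

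The libraries held 17959394 to 28039742 expected counts and 16087 to 17270 genes with reads, with WT replicate 2 and KO replicate 1 the deepest. Lymphoid content differed more between libraries than between genotypes. Cd79a, a subunit of the B cell receptor, stood at 443, 1.27 and 191 CPM in WT and at 150, 403 and 396.5 CPM in KO. WT replicate 2 was thus nearly free of Cd79a, and the groups overlapped. The 11 B cell markers summed to 2271, 9.03 and 969 CPM in WT and to 640, 2053 and 1915 CPM in KO. The 12 T cell markers ran alongside, between 26.1 CPM in WT replicate 2 and 1425 CPM in KO replicate 2. The first principal component held 72.2% of the variance and correlated across the libraries with the mean log2 level of the B cell markers (r = 0.95 over 6 libraries, a description). WT replicate 2 also carried 605 CPM of skeletal muscle markers against 4.0 to 46.2 CPM in the other libraries. Mature adipocyte markers summed to 11368, 37262 and 28620 CPM in WT and to 36994, 14654 and 15013 CPM in KO, so that KO replicate 1 was close to WT replicate 2 and the other KO libraries lay near WT replicate 1. The defining adipocyte markers Adipoq and Plin1 were abundant in every library, at no less than 728 and 381 CPM. The part of this cell content in the results below was not tested beyond the fits with the B cell level as a covariate and without single libraries.

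**Figure D1:**
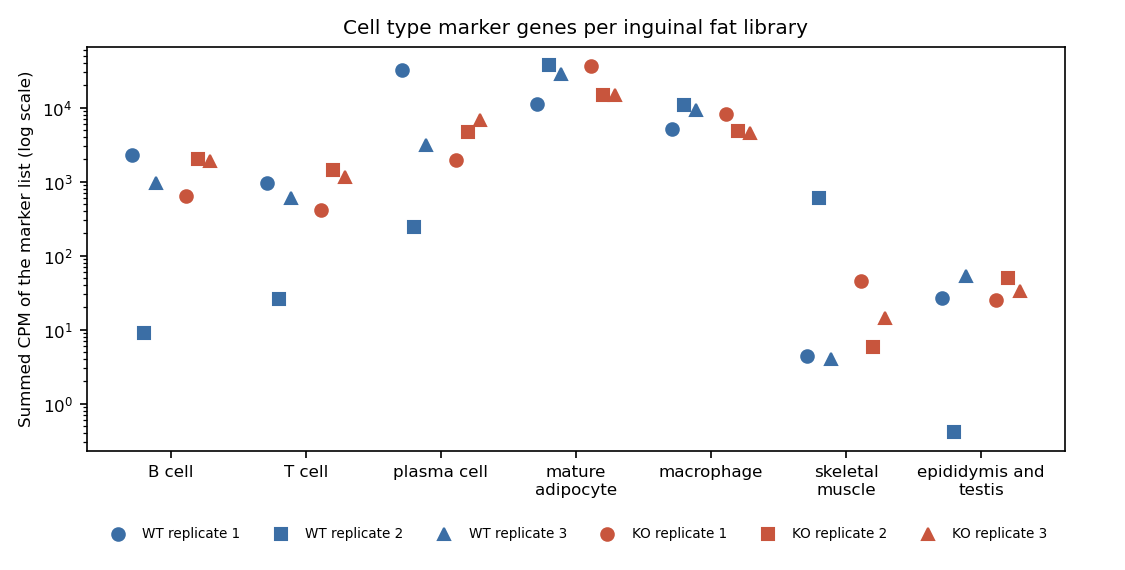
Summed CPM of marker lists (vertical axis, log scale) in each of the 6 iWAT libraries, blue for WT and red for KO, with 1 symbol per replicate. WT replicate 2 stands far below the other libraries for B cell, T cell and plasma cell markers and far above them for skeletal muscle markers.

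Bckdha lies on chromosome 7 at 25629946 to 25658981 (GRCm38, as all coordinates here). It was present at 119, 232 and 201 CPM in WT and at 261, 117 and 160 CPM in KO. The groups overlapped and the log2 fold change was -0.04 (SE 0.38). Since the Cre promoter is not expected to act in fat, this level does not check the genotype labels. Over a list of the complex and its regulators that also held the transaminase gene Bcat2, 1 of 8 tested members stood higher in KO and 7 lower. The median log2 fold change was -0.13 and none passed the test. Among them, Dld, the E3 subunit shared with other ketoacid dehydrogenases, had a log2 fold change of -0.66 (SE 0.35), Bcat2, the mitochondrial transaminase, -0.54 (SE 0.55) and Ppm1k, the phosphatase that activates the complex, 0.42 (SE 0.38). Of 18 enzymes of branched-chain amino acid breakdown, 6 stood higher and 12 lower, with a median of -0.09. Both medians turned positive without WT replicate 2, to 0.04 and 0.09, but fell to -0.48 and -0.52 without KO replicate 1. With both of these libraries left out they were -0.26 and -0.32.

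Across all genes, edgeR's quasi-likelihood test called 0 of 14226 genes at an adjusted p under 0.05 (0% higher and 0% lower), and the lowest adjusted p was 0.9998. At an unadjusted p under 0.05 it listed 593 genes (4.17%), and 52% of genes had a log2 fold change above 0, with a median of 0.01. limma-voom called 0 genes. DESeq2 called 67 genes, 27 higher in KO (0.194% of those it tested) and 40 lower (0.288%). In all 67 the groups were separated, meaning that no KO library fell within the WT range or beyond its far side. Such separation held for 618 genes with KO higher (4.34%) and for 716 with KO lower (5.03%) over all genes tested. With the B cell level as a covariate, edgeR again called 0 genes, with a lowest adjusted p of 0.152, and the 67 genes kept their sign. Leaving out WT replicate 3 lowered the DESeq2 count to 25, leaving out KO replicate 3 to 37 and leaving out KO replicate 2 to 39, while it was 328 when WT replicate 1 was left out. There were 12 genes called by DESeq2 in all 6 fits that left out a library: Mup22, Mup18, Cish, Clec4a2, Adamtsl2, Fam20c, Wfdc17, Ccr1, Ccl8, Mest, Ddit4 and Aspg. Below, "DESeq2 call" marks a gene of the 67, and no gene described below passed edgeR's test.

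**Figure D2:**
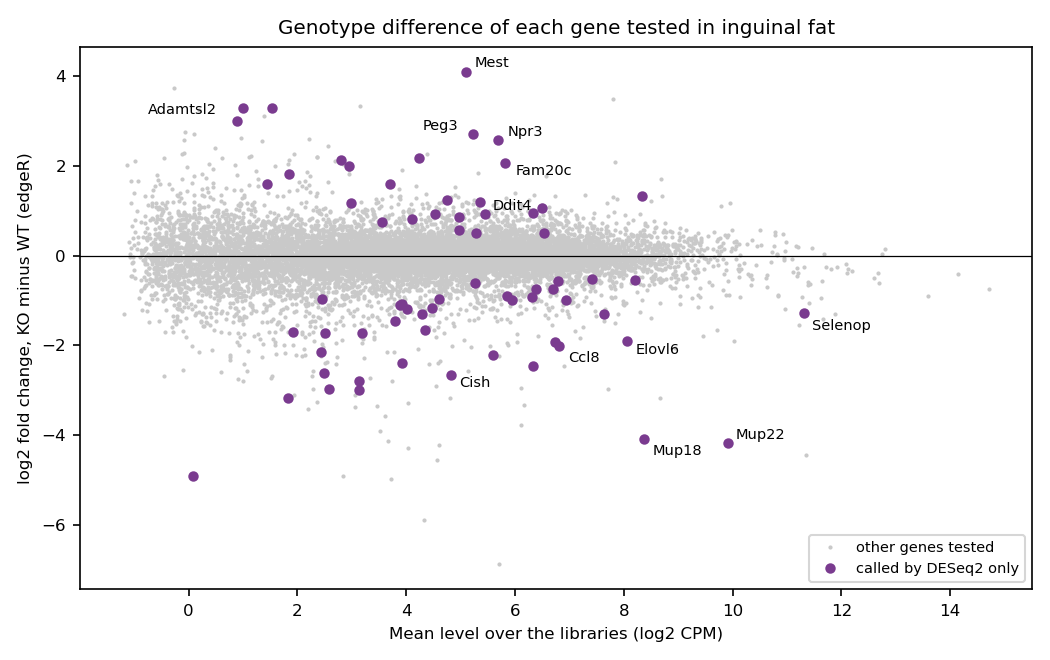
Each point is a gene, with its mean level in log2 CPM on the horizontal axis and its edgeR log2 fold change, KO minus WT, on the vertical axis. Purple marks the 67 genes called by DESeq2 and by neither edgeR nor limma-voom. Mup22 and Mup18 lie lowest among the labelled genes and Mest highest.

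The genes of lowest p were Mup22, Mup18 and Cish. Mup22 and Mup18 encode major urinary proteins, small secreted carriers of pheromones and lipids that liver makes under growth hormone control. Mup22 (chromosome 4, 60817589 to 60821463) stood at 1220, 1598 and 2663 CPM in WT and at 139.5, 63.6 and 101 CPM in KO, with a log2 fold change of -4.17 (SE 0.47). Mup18 (chromosome 4, 61670177 to 61674136) stood at 403, 639 and 844 CPM in WT and at 52.7, 19.7 and 38.9 CPM in KO, with a log2 fold change of -4.08 (SE 0.49). The lowest WT library exceeded the highest KO library by several fold for both. Their adjusted p was 0.9998 in edgeR, and 2.31e-19 and 3.93e-16 in DESeq2. These genes are near-identical copies of one another, so how reads divide among them is uncertain. The family was therefore summed over its 20 members with reads: 1828, 2465 and 3988 CPM in WT against 486, 171 and 230 CPM in KO. The WT mean was 2761 ± 1110 CPM and the KO mean 295.5 ± 167 CPM (SD, n = 3), 9.34-fold lower in KO. The exact permutation test on the summed log2 level (two-sided) gave p = 0.1, the smallest that 3 libraries against 3 allow. Of 15 members tested, 11 stood lower, 7 with separated groups (against 5.03% of all genes). DESeq2 called 5 of them (Mup22, Mup18, Mup16, Mup11 and Mup9, the last 3 named after their values were seen). The calls on Mup16, Mup11 and Mup9 were lost without WT replicate 3, and those on Mup11 and Mup9 also without KO replicate 2 or KO replicate 3.

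Liver expresses this family at far higher levels, so each library was also read against albumin (Alb), a liver gene. Mup22 gave 9.14 to 13.6 reads per Alb read in the WT iWAT libraries and 0.498 to 0.663 in the KO iWAT libraries. The same ratio was 0.192 to 0.388 in WT liver, 0.183 to 0.334 in KO liver, 0.274 to 0.588 in WT epididymal fat (eWAT) and 0.293 to 0.330 in KO epididymal fat. The KO iWAT libraries thus lay above the ranges of liver and of KO epididymal fat and overlapped that of WT epididymal fat. The WT iWAT libraries lay far above all of these. Of the 9 hepatocyte markers, Alb among them, 8 stood higher in KO, with a median log2 fold change of 0.35 that was 0.13 without WT replicate 2 and -0.36 with KO replicate 1 left out as well.

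Cish encodes a suppressor of cytokine signalling that Stat5 induces. It lies on chromosome 9 at 107296026 to 107302784, and stood at 24.4, 64.8 and 56.7 CPM in WT and at 6.92, 8.003 and 8.30 CPM in KO. The KO libraries were close to each other and all below WT (log2 fold change -2.65, SE 0.39, DESeq2 adjusted p 1.12e-06). Bcl6, a transcriptional repressor whose expression Stat5 is known to lower, went the other way: 61.4, 17.7 and 25.6 CPM in WT and 113, 82.6 and 82.4 CPM in KO, with separated groups and a log2 fold change of 1.41 (SE 0.48), not called by any of the 3 tools. Over the axis, 7 of 16 tested members stood higher and 9 lower, with a median of -0.06 and 1 DESeq2 call. Igfbp5, a secreted binding protein of insulin-like growth factors, stood at 382, 2056 and 849 CPM in WT and at 313, 236 and 405 CPM in KO. Its log2 fold change was -1.78 (SE 0.62), and -0.95 without WT replicate 2. Igf1, the growth factor itself, was named after its values were seen. It had 83.7, 157 and 124 CPM in WT and 111, 66.6 and 43.1 CPM in KO (log2 fold change -0.73, SE 0.40), and the groups overlapped. Other members of the axis were Igfbp2 at 0.90, Igfbp3 at -0.62, Socs2 at -0.20 and Ghr at 0.09. Socs2 and Ghr were also named after their values were seen.

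The starts of Cish and Bcl6 are shown because both genes had separated groups and a match to TTCNNNGAA. Stat5 binds this palindrome, which reads the same on both strands. Over the axis, groups were separated for 3 members with KO higher and 1 with KO lower, Bcl6 and Cish among them. The shares over all genes were 4.34% and 5.03%. Sequences are from RefSeq promoters on GRCm38.p6, 5′ to 3′ on the gene's strand, with matches in capitals; the Cish stretch is chr9:107296655-107296684 (plus strand) and the Bcl6 stretch is chr16:23981354-23981458 (minus strand).
Cish: agttTTCCTGGAAagTTCTTGGAAatctgt
Bcl6: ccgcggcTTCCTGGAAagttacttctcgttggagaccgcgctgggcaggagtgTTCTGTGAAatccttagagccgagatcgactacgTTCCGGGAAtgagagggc
The Cish stretch runs from 4 bases before to 26 bases after the RefSeq start, which lies inside the wider GENCODE gene span given above, and holds 2 matches. The Bcl6 stretch runs from 175 to 71 bases before a RefSeq start that also lies inside the gene span, and holds 3. Of 32851 RefSeq promoter windows of 300 bases each, 8.3% held a match, and among the 15 genes of the axis with a window only Cish and Bcl6 did. A match is a description of the letters and not a measured binding site.

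**Figure D3:**
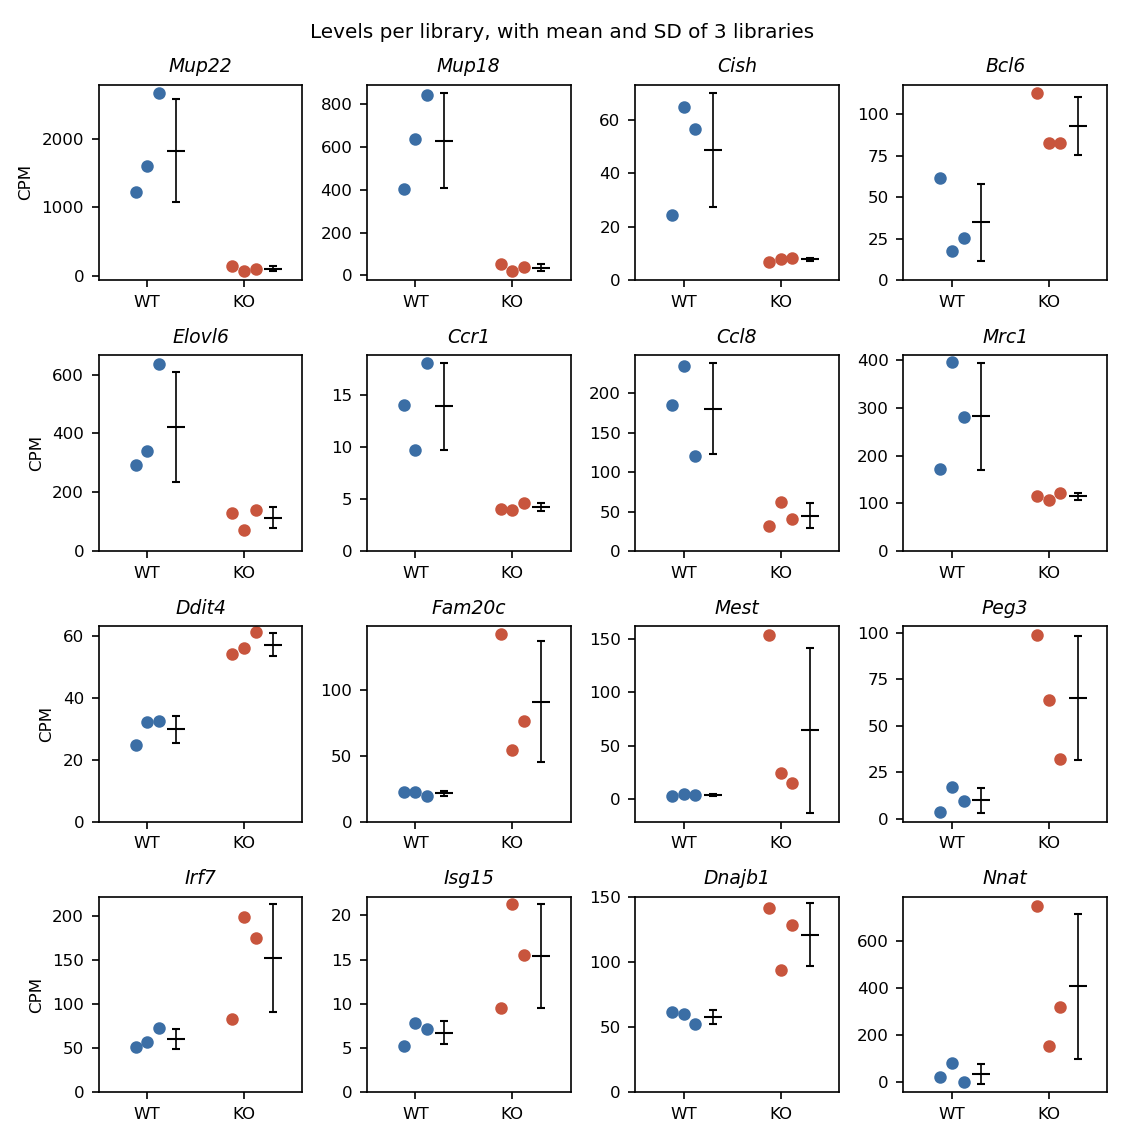
CPM of 16 genes in each library (points, blue for WT and red for KO) with the mean and SD of 3 libraries beside them (black bars), on linear axes. Mup22, Mup18, Cish and Elovl6 are lower in every KO library, and KO replicate 1 is the highest library for Mest, Peg3, Fam20c and Nnat.

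Of the macrophage markers, 11 of 12 tested stood lower in KO, with a median log2 fold change of -0.74 against 0.01 over all genes. Of the dendritic cell markers, 6 of 9 stood higher, with a median of 0.24 that was -0.11 without WT replicate 2. Outside these lists, Clec4a2, an inhibitory lectin receptor of myeloid cells, stood at 20.2, 22.8 and 18.5 CPM in WT and at 10.3, 9.77 and 8.93 CPM in KO (log2 fold change -1.08, SE 0.18). Ccr1, a receptor for inflammatory chemokines, stood at 14.0, 9.69 and 18.1 CPM in WT and at 4.04, 3.98 and 4.65 CPM in KO (log2 fold change -1.72, SE 0.29). Ccl8, a chemokine made by resident macrophages, stood at 185, 235 and 120.5 CPM in WT and at 32.0, 62.5 and 40.3 CPM in KO (log2 fold change -2.01, SE 0.36). For each of these, every KO library lay below every WT library, and each was a DESeq2 call in all 6 leave-one-out fits. Ms4a7 and Ms4a6d, membrane proteins of macrophages, had log2 fold changes of -1.31 and -1.17; both calls were lost without KO replicate 3, and that on Ms4a6d also without WT replicate 3. Further DESeq2 calls, named after their values were seen, were the Fc receptors Fcgr2b (-0.74) and Fcgr3 (-0.93), the lectins Clec4d (-2.61) and Clec4a3 (-0.96), the secreted Wfdc17 (-2.21) and the haem oxygenase Hmox1 (-0.99). All but Wfdc17 lost the call without WT replicate 3, and other fits lost it too. The calls held in 2 of the 6 leave-one-out fits for Fcgr2b, Fcgr3 and Hmox1, 3 for Clec4a3 and 4 for Clec4d.

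On the macrophage list, Itgax (0.70) was the 1 member that stood higher. Of the lower members, 6 had separated groups, against 5.03% of all genes with KO lower. Mrc1, the mannose receptor, stood at 172, 396.5 and 281 CPM in WT and at 115, 107 and 122 CPM in KO (log2 fold change -1.30, SE 0.32). Cd68, a lysosomal marker, stood at 122, 151 and 133 CPM in WT and at 61.8, 77.0 and 97.6 CPM in KO (-0.78, SE 0.22). Adgre1, the F4/80 antigen, had a log2 fold change of -1.001 (SE 0.27), the receptor for apoptotic cells Mertk -0.57 (SE 0.15) and the growth factor receptor Csf1r -0.56 (SE 0.21). The list's median was -0.56 with the B cell level in the model and -0.63 without WT replicate 2. Of the list, Lpl is also a major adipocyte gene. Mrc1 was the only DESeq2 call among the 12, and that call held in 1 of the 6 leave-one-out fits, the one without WT replicate 1.

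Genes of the extracellular matrix and of fibroblast-like progenitors also stood lower in KO, and these differences shrank when WT replicate 2 was left out. Vcan, a large proteoglycan, stood at 15.8, 26.8 and 18.1 CPM in WT and at 7.52, 6.58 and 7.93 CPM in KO (log2 fold change -1.46, SE 0.26, a DESeq2 call that was lost without KO replicate 2). Lum, a collagen-binding proteoglycan, stood at 158, 262 and 83.4 CPM in WT and at 54.3, 41.2 and 37.6 CPM in KO (-1.92, SE 0.43, a DESeq2 call lost without KO replicate 2 and without KO replicate 3). Both kept separated groups. Col1a1, a chain of type I collagen, stood at 409, 1627 and 343 CPM in WT and at 174, 153 and 243 CPM in KO (-2.06, SE 0.66). Without WT replicate 2 its log2 fold change was -0.99. Of 19 genes of collagens and elastic matrix, 18 stood lower and 1 higher, 6 with separated groups, and the median of -0.82 shrank to -0.34 without WT replicate 2 and to -0.41 with the B cell level in the model. The 6, against 5.03% of all genes separated with KO lower, were Col1a1, Col3a1, Col14a1, Col1a2, Fbn1 and Col5a2. Of 20 matricellular and remodelling genes, 15 stood lower, with a median of -0.49, among them the metalloproteases Mmp3 (-0.99, SE 0.30) and Mmp14 (-1.01, SE 0.36) and the matricellular Postn (-1.30, SE 0.47). Ccn1, a matricellular protein induced by YAP, was among the 5 that stood higher, at 8.12, 4.60 and 5.29 CPM in WT and 16.3, 10.3 and 9.25 CPM in KO. Progenitor markers stood lower for 8 of 12, with Pdgfra at -0.86 (SE 0.33) and Cd34 at -1.05 (SE 0.43), a median of -0.41, and a median of -0.22 without WT replicate 2.

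Fatty acid synthesis had the lowest median of the metabolic lists. Elovl6, which elongates palmitate to stearate (chromosome 3, 129532355 to 129638495), stood at 292, 341 and 638 CPM in WT and at 129, 72.0 and 139 CPM in KO. Every KO library lay below every WT library (log2 fold change -1.90, SE 0.41), and the DESeq2 call (adjusted p 0.00303) was lost only without WT replicate 3. Elovl3, an elongase of very long saturated chains, stood at 14.4, 4.76 and 24.1 CPM in WT and at 4.72, 3.34 and 3.86 CPM in KO (-1.86, SE 0.58). Of 19 tested members, 18 stood lower and 1 higher (the desaturase Fads1). Against 5.03% of all genes with KO lower, 3 had separated groups (Elovl6, Elovl3 and the desaturase Scd2, -0.87, SE 0.32). The median was -0.87, and -0.64 without WT replicate 2. Acly, which makes cytosolic acetyl-CoA, stood at 2727, 6452 and 6870 CPM in WT and at 2848, 1229 and 2426 CPM in KO (-1.30, SE 0.50). Acacb, an acetyl-CoA carboxylase, had a log2 fold change of -1.14 (SE 0.44). For both, WT replicate 1, the WT library with the least adipocyte signal, lay within the KO range.

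All 19 tested genes of pyruvate entry and the TCA cycle stood lower in KO, with a median of -0.40, no separated groups and no DESeq2 call. Mpc1, of the mitochondrial pyruvate carrier, stood at 303, 460 and 522 CPM in WT and at 306, 166 and 179 CPM in KO (-0.98, SE 0.33). The pyruvate dehydrogenase subunits Dlat (-1.07, SE 0.37), Pdhb (-1.04, SE 0.39) and Pdha1 (-0.92, SE 0.37) had the same order, with KO replicate 1 inside the WT range. Of 18 glycolytic genes, 15 stood lower (median -0.33), 4 with separated groups (against 5.03% of all genes), including Pgk1 (-0.46, SE 0.18). The 13 protein genes of the mitochondrial genome all stood lower (median -0.39), as did 38 of 41 nuclear genes of the respiratory chain (median -0.18), without separated groups in either list. With the B cell level in the model, 27 of the 41 stood lower (median -0.05), and without KO replicate 2 their median was -0.0099. Without KO replicate 1 the medians were -0.52 for the nuclear respiratory chain, -0.67 for the mitochondrial genome and -0.79 for the TCA cycle, and without KO replicate 3 that of the mitochondrial genome was -0.17.

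Cholesterol genes did not share the direction of fatty acid synthesis: 18 of 23 stood higher, with a median of 0.10. Insig1, which holds the sterol sensor in the endoplasmic reticulum, stood at 115, 111 and 185 CPM in WT and at 492.5, 216 and 283 CPM in KO (log2 fold change 1.27, SE 0.38, separated groups). The list's median was -0.12 without KO replicate 1 and -0.07 with WT replicate 2 left out as well.

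**Figure D4:**
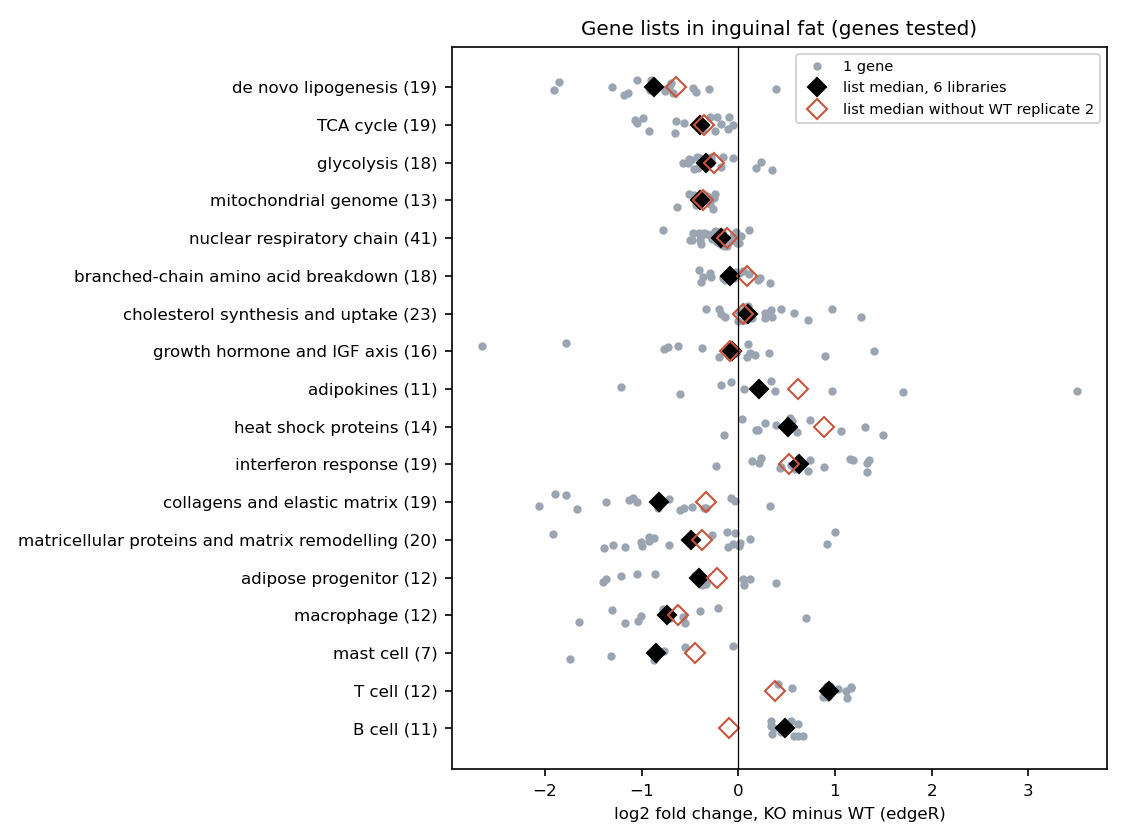
The edgeR log2 fold changes, KO minus WT, of the tested members of 18 gene lists (grey points, number of genes in parentheses), with the median over all 6 libraries (black diamonds) and without WT replicate 2 (open diamonds). The medians of the collagen, T cell and B cell lists move most when that library is left out, and those of the B cell and branched-chain amino acid lists change sign.

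Mest, Peg3, Npr3, Inhbb and Trp53inp2 stood higher in KO, each with its highest level in KO replicate 1, the KO library with the most adipocyte signal. They were named after their values were seen and come from no list. Mest, an imprinted gene that marks expanding fat cells, stood at 2.88, 4.68 and 3.65 CPM in WT and at 154, 24.4 and 14.9 CPM in KO (log2 fold change 4.11, SE 0.99, a DESeq2 call in all 6 leave-one-out fits). Peg3, an imprinted zinc finger gene, stood at 3.56, 16.9 and 9.40 CPM in WT and at 98.7, 63.8 and 32.3 CPM in KO (2.70, SE 0.67, a DESeq2 call lost without KO replicate 1, KO replicate 2 or WT replicate 3). Npr3, the clearance receptor of natriuretic peptides, stood at 10.1, 23.3 and 10.5 CPM in WT and at 145, 50.9 and 67.6 CPM in KO (2.58, SE 0.54). The groups were separated for all 3 genes. Inhbb, a subunit of activin B, had a log2 fold change of 2.18 (SE 0.47) and Trp53inp2, a regulator of autophagy, 1.33 (SE 0.30). The DESeq2 calls on Npr3, Inhbb and Trp53inp2 were lost without WT replicate 3, and that on Trp53inp2 also without KO replicate 3.

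Of 11 tested genes on the adipokine list, 7 stood higher in KO, with a median of 0.21 and no DESeq2 call. Their median was 0.62 without WT replicate 2, but -0.36 when KO replicate 1 was left out and -0.14 when WT replicate 1 was. Nnat, an imprinted proteolipid placed on this list, stood at 22.1, 83.3 and 2.26 CPM in WT and at 752, 154 and 318 CPM in KO. Its log2 fold change (3.51, SE 1.28) was the highest of the list. Lep, the leptin gene, stood at 85.7, 392 and 101 CPM in WT and at 990, 339 and 560 CPM in KO (1.71, SE 0.72). KO replicate 2 lay below WT replicate 2 for Lep, so the groups overlapped. Its log2 fold change was 2.68 (unadjusted p = 7.13e-05 in edgeR) with the B cell level in the model. Apln, the apelin gene, stood lower at -1.21 (SE 0.49), with overlapping groups. Of the lipolysis list, Adrb1, a beta-adrenergic receptor, had separated groups and 1.09 (SE 0.44). Over the 10 mature adipocyte markers, 7 stood higher, with a median of 0.16 that was 0.63 without WT replicate 2, but -0.41 when KO replicate 1 was left out and -0.21 when WT replicate 1 was.

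Several stress-related genes stood higher in KO. Ddit4, an inhibitor of mTORC1, stood at 24.9, 32.1 and 32.5 CPM in WT and at 54.2, 55.9 and 61.3 CPM in KO (log2 fold change 0.94, SE 0.17, DESeq2 adjusted p 0.000904). Its KO libraries were close to each other and all above WT. Dnajb1, a co-chaperone of Hsp70, stood at 61.9, 60.1 and 52.3 CPM in WT and at 142, 94.3 and 128 CPM in KO (1.06, SE 0.20, a DESeq2 call lost without KO replicate 3 and without WT replicate 3). Of 14 heat shock genes, 13 stood higher, with a median of 0.51 (0.89 without WT replicate 2 and 0.08 without KO replicate 1). Groups were separated for 2 of them, against 4.34% of all genes with KO higher. The inducible Hsp70 genes Hspa1b (1.31, SE 0.43) and Hspa1a (1.495, SE 0.54), near-identical copies whose reads may be split either way, overlapped because WT replicate 2 lay above KO replicate 2. Hsph1 had 0.74 (SE 0.35) and Hsp90ab1 0.49 (SE 0.24). Phgdh, the first enzyme of serine synthesis, had separated groups at 0.87 (SE 0.28), and Klf2, an immediate early gene, at 0.87 (SE 0.21). Ddit4 had the highest log2 fold change of 15 amino acid stress genes, of which 11 stood higher and 4 lower, the lowest at -0.71. Their median was 0.19, and -0.0015 without WT replicate 1. Klf2 was the highest of 15 immediate early genes, of which 12 stood higher and 3 lower, the lowest at -0.75. Their median was 0.28, and 0.05 without KO replicate 3.

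Interferon-induced genes stood higher for 18 of 19 tested, the exception being Rsad2, with a median of 0.63 and no DESeq2 call on the list. Groups were separated for 7 of the 19, against 4.34% of all genes with KO higher. Irf7, the transcription factor that amplifies the response, stood at 51.3, 57.1 and 72.5 CPM in WT and at 83.2, 199 and 175 CPM in KO (1.34, SE 0.35). Usp18, a negative regulator of the interferon receptor, had a log2 fold change of 1.35 (SE 0.37), also with separated groups. KO replicates 2 and 3 were high and KO replicate 1 lay just above WT for both. Isg15, a ubiquitin-like protein, had 1.19 (SE 0.35), Ifit1, an RNA-binding antiviral protein, 1.16 (SE 0.42), and Stat2, a subunit of the interferon-activated factor, 0.55 (SE 0.19). Oasl1, an oligoadenylate synthase-like protein outside the list, stood at 5.45, 6.73 and 7.14 CPM in WT and at 12.5, 23.7 and 22.4 CPM in KO (1.599, SE 0.30, a DESeq2 call lost without KO replicate 2, KO replicate 3 or WT replicate 3). KO replicates 2 and 3 were also the libraries with the highest T cell sums. The list's median was 0.47 with the B cell level in the model, where all 19 stood higher, and 0.53 without WT replicate 2; the T cell list's median was 0.94 and 0.38 without that library.

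The starts of Isg15 and Ifit1 are shown because 18 of 19 interferon genes stood higher and the interferon-activated factor binds the response element, searched here as GAAANNGAA and, on the other strand, TTCNNTTTC. Both are RefSeq promoter sequence on GRCm38.p6, on the gene's strand, with matches in capitals (overlapping ones joined); the Isg15 stretch is chr4:156200849-156200918 (minus strand) and the Ifit1 stretch is chr19:34640764-34640833 (plus strand).
Isg15: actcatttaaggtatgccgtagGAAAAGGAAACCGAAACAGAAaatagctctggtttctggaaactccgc
Ifit1: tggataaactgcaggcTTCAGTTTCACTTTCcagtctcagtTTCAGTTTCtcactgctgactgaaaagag
Each promoter holds 3 matches. Of all 32851 windows 8.56% held one, and 9 of the 15 list genes with a window did: Gbp2, Gbp3, Ifi44, Ifit1, Ifit3, Isg15, Oas1a, Rsad2 and Stat2. Rsad2, with a match, was the 1 member that stood lower, and its log2 fold change was 0.12 without WT replicate 2.

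The remaining genes of lowest p with higher levels in KO had no list in common. Adamtsl2, a secreted glycoprotein of the matrix, stood at 0.210, 0.370 and 0.462 CPM in WT and at 4.08, 1.92 and 4.44 CPM in KO (log2 fold change 3.30, SE 0.53). Fam20c, the Golgi kinase that phosphorylates secreted proteins, stood at 22.5, 22.8 and 19.6 CPM in WT and at 142, 54.2 and 76.6 CPM in KO (2.08, SE 0.37). Both were DESeq2 calls in all 6 leave-one-out fits. Axin2, a target and brake of Wnt signalling, stood at 16.9, 14.3 and 16.3 CPM in WT and at 35.1, 27.7 and 27.3 CPM in KO (0.92, SE 0.18). Gprasp1, which sorts receptors to lysosomes, had 0.86 (SE 0.16), the cadherin Cdh23 1.61 (SE 0.32) and the cyclin A partner Scaper 1.17 (SE 0.24). The DESeq2 calls on Axin2, Gprasp1, Cdh23 and Scaper were lost without WT replicate 2 and without WT replicate 3. Gprasp1 also lost it without KO replicate 2 or KO replicate 3, Cdh23 without KO replicate 1 or KO replicate 3, and Scaper without KO replicate 1 or KO replicate 2. Among the lower genes outside these groups, Reps2, an endocytic adaptor, stood at 19.1, 39.1 and 33.9 CPM in WT and at 11.0, 9.13 and 9.25 CPM in KO (-1.65, SE 0.30, a DESeq2 call lost without WT replicate 3). Aspg, an asparaginase (-2.39, SE 0.48), and Selenop, the selenium carrier (2769, 4208 and 3823 CPM in WT, 1602, 1661 and 1188 CPM in KO, -1.28, SE 0.29), were named after their values were seen; the call on Selenop was lost without WT replicate 3.

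The same contrast was then set beside liver and epididymal fat, each with its own 3 KO and 3 WT libraries. edgeR called 0 of 15455 genes (0%) for the difference between the genotype effects of the fat depots and 0 of 14673 (0%) for inguinal fat against liver. At an unadjusted p under 0.05 it listed 739 and 705, and DESeq2 called 31 and 35. Cish stood lower in all 3 tissues, with log2 fold changes of -2.00 (SE 0.81, edgeR adjusted p 0.706) in epididymal fat and -2.62 (SE 0.24, edgeR adjusted p 0.0109) in liver. The iWAT effect differed from that of liver by -0.02 (SE 0.46). In epididymal fat the Cish groups overlapped, at 53.9, 8.62 and 70.4 CPM in WT and 14.2, 5.70 and 14.7 CPM in KO. Bcl6 stood higher in all 3, with 2.36 (SE 0.37, edgeR adjusted p 0.706) in epididymal fat and 3.31 (SE 0.32, edgeR adjusted p 0.0109) in liver. Mup22 differed little by genotype in liver (-0.20, SE 0.37), and its effect in iWAT was lower than in liver by 3.98 on the log2 scale, with SE 0.64 (edgeR adjusted p 0.21, DESeq2 adjusted p 1.96e-07). In epididymal fat Mup22 was 0.41 (SE 0.92), on a WT level of 52.7 ± 11.5 CPM (SD, n = 3; scaled with the iWAT libraries).

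Mest, Peg3, Npr3 and Fam20c stood higher in both fat depots, at 3.74 (SE 1.06), 2.43 (SE 0.43), 2.17 (SE 1.12) and 1.78 (SE 0.38) in epididymal fat, and their differences between depots were 0.36 or less, each with an SE above its size. In liver these 4 genes had log2 fold changes between -0.21 and 0.38. The macrophage marker Cd68 had opposite signs in the fat depots, with 1.54 (SE 0.37) in epididymal fat against -0.78 here, a difference of -2.36 (SE 0.43, edgeR adjusted p 0.969, DESeq2 adjusted p 0.00167). Elovl6 was lower in epididymal fat by more than here, at -4.41 (SE 0.61, difference 2.46, SE 0.70, edgeR adjusted p 0.969). Insig1 was lower in epididymal fat, at -1.67 (SE 0.52), where it was higher here, with a difference of 2.89 (SE 0.65, edgeR adjusted p 0.969, DESeq2 adjusted p 0.00962). The epididymal comparison included a WT library, replicate 2, whose top gene was the epididymal Gpx5 with 4.39% of its counts. Gpx5 stood at 12.81 to 19.85 CPM in the epididymal KO libraries. Crisp1, on the epididymis and testis list, was high in that WT library (1103 CPM) and in epididymal KO replicates 1 and 3 (1518 and 1744 CPM). It was at 2.03 CPM or less in the other epididymal libraries. The part of epididymal KO replicates 1 and 3 in the depot differences was not tested. Without epididymal WT replicate 2, edgeR called 0 genes for the depot difference. The differences were then -2.15 (SE 0.40) for Cd68, 2.73 (SE 0.68) for Elovl6 and 3.25 (SE 0.51) for Insig1. Those of Mest, Peg3, Npr3 and Fam20c were then 0.77 (SE 1.33), 0.51 (SE 0.80), 0.91 (SE 0.83) and 0.005 (SE 0.55). Without inguinal KO replicate 1 these 4 differences were -1.42 (SE 1.21), -0.20 (SE 0.83), -0.20 (SE 1.35) and -0.22 (SE 0.47).

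**Figure D5:**
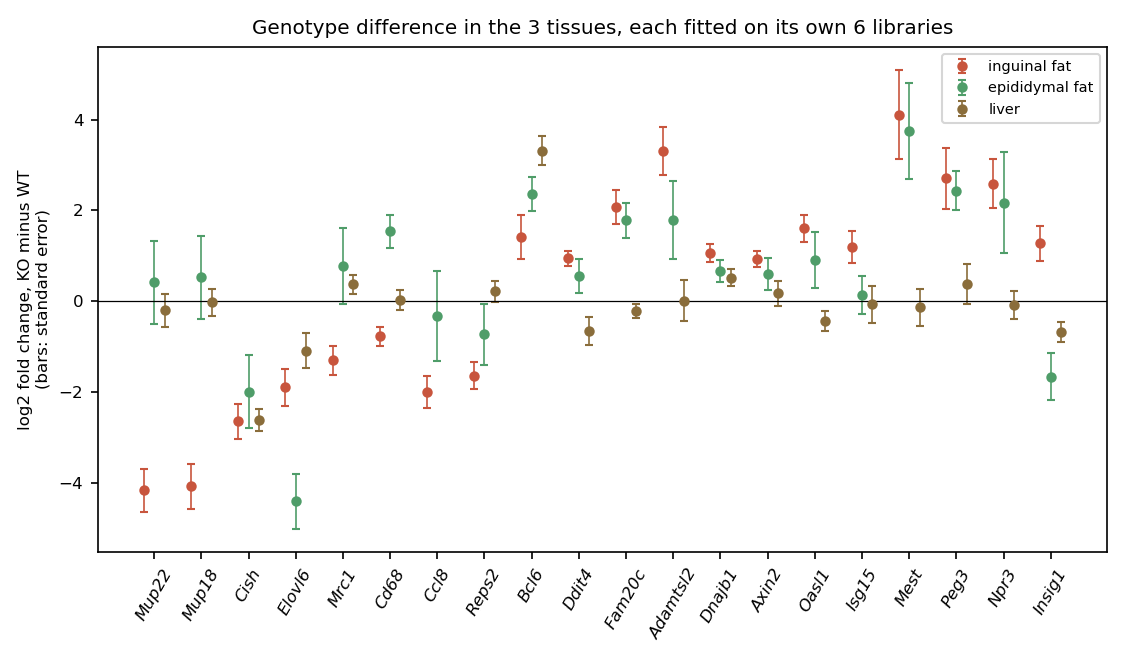
edgeR log2 fold changes, KO minus WT, with standard errors (bars), for 20 genes in inguinal fat, epididymal fat and liver, each fitted on its own 6 libraries. Cish is lower and Bcl6 higher in all 3 tissues, while Mup22 and Mup18 lie near -4 in inguinal fat and within 1 SE of 0 in the other tissues; Ccl8 has no liver value because it did not pass the count filter there.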

How the data were processed

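RNA of inguinal fat, epididymal fat and liver was sequenced after oligo(dT) enrichment and random priming, per the labels' protocols. Strandedness is not stated, so a gene and its antisense partner may share reads here. According to the submitters' processing notes, build mm10 was used with RSEM, StringTie 1.3.1, HISAT2, Bowtie2 2.2.8, edgeR, DESeq2 and fastp 0.18.0, with no roles given. For each library the authors deposited expected counts and FPKM by gene; 9.13% of the iWAT expected counts were not whole (tolerance 0.01) and all were rounded here. The deposited FPKM values, scaled by the authors for gene length and depth, served as alternatives only. Of 22298 identifiers 22255 matched a GENCODE M21 symbol. Per-sample columns were matched to labels by file.

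Genes were filtered with edgeR 4.0.16 filterByExpr (minimum count 10, minimum total 15), scaled by TMM and tested in R 4.3.3 with glmQLFit (robust) and glmQLFTest. P-values were adjusted over all genes by Benjamini-Hochberg, with a threshold of 0.05. SE is the absolute log2 fold change over the square root of F. CPM used TMM-scaled sizes of the 6 iWAT libraries. Differences between tissues were interaction terms over 12 libraries; levels in other tissues were scaled with the iWAT libraries. DESeq2 1.42.0 and limma 3.58.1 (voom, and log2 FPKM with pseudocounts of 1 or 0.1) were alternatives, beside other scalings and filters, a B cell covariate (mean log2 CPM of 11 genes, prior count 2), a replicate block and leaving out each library. The fits with WT replicate 2 and KO replicate 1 both left out, the depot difference without epididymal WT replicate 2, and DESeq2 beyond the 6-library fit, were added after seeing the data. The test was tested on simulated data.

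Members and the 53 gene lists were chosen with earlier results of these data known. Named genes were Bckdha and Cd79a, the 10 genes of lowest p with separated groups in each direction, with genes known only by a predicted or clone-based name skipped (none passed), up to 5 members of each list by p, defining markers, and the genes of lowest p for differences between tissues; others are said to be chosen after their values were seen. A few genes that the rule names are not reported here. Separated means that every KO library lies on one side of every WT library.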

Additional observations from a re-analysis of the deposited data

How the results depend on the processing

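For inguinal fat, edgeR and limma called 0 genes under each of the 23 alternatives except DESeq2, which called 67. Leaving out each library in turn gave 0 in all 6 edgeR fits. The DESeq2 count ranged from 25 to 328 over its leave-one-out fits, was 203 with the B cell level as a covariate (53 of the 67 among them), 58 with no filter on low counts and 96 with WT replicate 2 and KO replicate 1 left out (36 of the 67 among them). The difference from epididymal fat gave 0 calls in edgeR and 31 in DESeq2, and 0 in every fit that left out an inguinal library or epididymal WT replicate 2. The difference from liver gave 35 calls in DESeq2 and 0 to 1 in the leave-one-out fits: Wfdc17 without WT replicate 1 and Lum without WT replicate 3. Of 91 named genes followed through the alternatives, 89 kept their sign in all that gave a value. Rsad2 turned positive in 3: 0.14 with the B cell covariate, 0.12 without WT replicate 2 and 0.11 with KO replicate 1 left out as well; its lowest leave-one-out value was -0.53 (without WT replicate 1). Bckdha, near 0, had a positive log2 fold change in 8: 0.22 with the B cell covariate, 0.0479 and 0.0476 in the filtered FPKM fits with pseudocounts of 0.1 and 1, 0.0476 in the unfiltered FPKM fit, 0.19 without KO replicate 2, 0.03 without KO replicate 3, 0.15 without WT replicate 2 and 0.04 without WT replicate 3. Its leave-one-out fits ran from -0.39 (without KO replicate 1) to 0.19. The FPKM fits with a filter moved the median of all genes to 0.12 and 0.14. Of 53 list medians, 20 kept their sign throughout, including those of fatty acid synthesis (-1.08 to -0.57), macrophages (-0.87 to -0.56), collagens (-0.96 to -0.25), interferon genes (0.47 to 0.95) and heat shock genes (0.08 to 0.89).

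Libraries with the same replicate number did not deviate together (correlations of -0.736, -0.585 and 0.147, and 0 of 6 correlating best with their own number). No pairing by number was thus seen. With so few libraries and a spread that followed the B cell level, these values cannot exclude one. A replicate block gave 0 calls, with 160 genes at an unadjusted p under 0.05, and 0 calls for either difference between tissues.

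The comparison has 3 libraries a group and 4 residual degrees of freedom. Low genes such as Adamtsl2, under 5 CPM in every library, rest on few reads. The mitochondrial list has no value in the fit without that genome.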

Other observations

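Mast cell and neutrophil markers were lower in KO as whole lists, though no gene of either list was called by any tool. All 7 tested mast cell genes stood lower (median log2 fold change -0.85, -0.45 without WT replicate 2). Against 5.03% of all genes with KO lower, 3 had separated groups. They included the IgE receptor subunit Fcer1a (2.30, 6.20 and 2.31 CPM in WT, 1.27, 0.835 and 1.11 CPM in KO) and the protease Cpa3 (-1.31, SE 0.47). All 7 neutrophil genes stood lower (median -1.95, and 0.38 without WT replicate 1). In WT replicate 1 the alarmin S100a9 reached 231 CPM against 1.89 to 40.9 CPM elsewhere. Saa3, an acute phase protein of inflamed fat, stood at 3.61, 23.0 and 19.4 CPM in WT and at 2.73, 2.16 and 0.846 CPM in KO (-2.99, SE 0.79), a DESeq2 call lost without KO replicate 2, KO replicate 3, WT replicate 2 or WT replicate 3. Thermogenic genes stood lower for 11 of 15 (median -0.34), endoplasmic reticulum stress genes for 14 of 15 (median -0.21, and 0.05 without WT replicate 1) and erythroid genes for 6 of 6 (median -0.46, from -1.11 without KO replicate 1 to -0.17 without KO replicate 2). The thermogenic median was -0.09 without WT replicate 1 and -0.69 without KO replicate 1. Circadian genes stood higher for 12 of 18 (median 0.15, 0.32 without WT replicate 2, but -0.12 when KO replicate 1 was left out and -0.04 when WT replicate 1 was). Hypoxia genes stood higher for 9 of 12 (median 0.28, 0.58 without WT replicate 2, but 0.07 when WT replicate 1 was left out and -0.05 when KO replicate 1 was). WT replicate 1 held 14598 CPM of the immunoglobulin heavy chain Ighg1, against 0.903 to 649 CPM in the other libraries.

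Transcripts of the epididymis were present in some inguinal libraries: Gpx5 stood at 17.8, 0.123 and 32.4 CPM in WT and at 0.187, 19.6 and 22.5 CPM in KO. The 2 libraries almost without it, WT replicate 2 and KO replicate 1, were also the 2 deepest. KO replicate 1 instead held the sperm transcripts Prm2 at 12.3 CPM and Prm1 at 7.86 CPM, which were at or below 0.246 CPM in the others. The epithelial keratin Krt8 stood at 31.4 CPM in KO replicate 1 and 7.33 CPM in WT replicate 1, and at 0.123 to 1.87 CPM in the rest. The Y-linked Ddx3y stood between 43.5 and 80.1 CPM in all 6 libraries.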
